A study of Mus musculus with 22 samples.

Results

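The 9 Toll-like receptor genes Tlr1, Tlr2, Tlr3, Tlr4, Tlr6, Tlr7, Tlr8, Tlr9 and Tlr13 and the co-receptor gene Cd14 were followed in microglia sorted from mouse brain. They are 10 of the 19937 genes that a probe set of the array measured alone. They were listed by name, and each was read from the one probe set that maps to its symbol alone. Tlr12 was measured too and stands among the pathway genes, while Tlr5 and Tlr11 were not analysed here.

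The study used 22 arrays of the type Affymetrix MoGene 1.0 ST, on which a probe set reports the brightness of probes along one transcript. The cells were gated as positive for CD11b, CD45 and F4/80 together, which the submitters took as microglia. Trem2(-/-) mice (KO, which lack the microglial surface receptor TREM2) were compared with WT mice. No strain, age, sex or number of animals per array was read from the labels, and the replicates are not said to be separate mice, so the p-values measure only the spread between these arrays. KO arrays came from mice fed cuprizone (3 arrays), from mice labelled as negative controls (2 arrays) and from 6 arrays with contradictory labels. Of these 6, set A (3 arrays) is titled as given both agents but described elsewhere as given Covi-Ox alone, and set B (3 arrays) is titled as Covi-Ox alone but described elsewhere as both. WT arrays came from mice given both agents (3), cuprizone alone (3), Covi-Ox alone (3) or neither (2 negative controls). Cuprizone, a copper chelator whose feeding kills oligodendrocytes and strips myelin, made up 0.2% of the feed. Covi-Ox, a mixture of tocopherols (vitamin E compounds) supplemented with alpha tocopherol, made up 0.1% of the feed. The treated mice were fed for 4 weeks, and the labels describe 2 weeks on tocopherol feed before both agents were combined.

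Toll-like receptors are membrane proteins of innate immune cells that recognise microbial molecules and molecules released by damaged tissue. TLR1, TLR2, TLR4 and TLR6 act at the cell surface, where TLR2 pairs with TLR1 or TLR6 to bind lipoproteins and CD14 hands lipopolysaccharide to TLR4. TLR3, TLR7, TLR8, TLR9 and TLR13 sit in endosomes and bind nucleic acids, and all but TLR3 signal through the adaptor MyD88. Microglia, the resident macrophages of the brain, express most of the family.

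Transcription of innate immune genes is governed in part by NF-kB, a factor activated by Toll-like receptors, and by PU.1, a factor that all macrophages need. Windows of 250 bases before the start site were searched on both strands in RefSeq's promoter table (build GRCm38.p6), in which 7 of the 10 genes had a window, 9 windows in all. Tlr4, Tlr7 and Cd14 had none. The NF-kB motif lay in 2 of these 9 windows, those of Tlr2 and Tlr3, and in 3.9% of all 32851 windows. The PU.1 motif GAGGAAG lay in 3 of them, those of Tlr1, Tlr9 and Tlr13, and in 10.6% of all windows. Motifs named AP-1 (Tlr9, 6.75% of all windows), ISRE (Tlr6, 2.98%) and C/EBP (Tlr3, Tlr6 and Tlr8, 9.56%) were searched too and are not shown. The stretches below are those of Tlr2 and Tlr1, which have the largest called rises under cuprizone. Those of Tlr3 and Tlr9 hold the same motifs without a called difference. They were picked on these calls, so a link between motif and change was not tested. Each has 30 bases, read 5′ to 3′ on the gene's strand, with the match in capitals. At Tlr2, overlapping matches on both strands were merged.
Tlr2, NF-kB, chr3:83841762-83841791, minus strand: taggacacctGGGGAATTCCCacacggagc
Tlr3, NF-kB, chr8:45410572-45410601, minus strand: agttgtttctGGGAGTTTCCtgcttttgag
Tlr1, PU.1, chr5:64933564-64933593, minus strand: aattaaatgttgGAGGAAGtaggagcttga
Tlr9, PU.1, chr9:106222474-106222503, plus strand: ggagagtggaaaGAGGAAGgggttgagggg
The Tlr2 match ended 163 bases before the start site and the Tlr1 match 17 bases before it. A match describes these letters only, and no binding was measured.

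Values are the authors' normalized intensities, and differences are log2 differences with a standard error from one limma model of the 8 group means. A call means a p under 0.05 after Benjamini-Hochberg adjustment over the 11830 genes kept. Of the 10 genes, 9 lay above the array median on all 22 arrays and were tested. Tlr8 lay at or below it on all arrays but WT control 2 and was not tested: its intensity had a lowest value of 11.4, a median of 17.6 and a highest of 23.6 on the 11 KO arrays, and 14.5, 19.3 and 38.3 on the 11 WT arrays. The median of a whole array was between 36.1 and 38.6.

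The array labels held for genotype: Trem2 intensity was 84.5 to 114 on the KO arrays and 1022 to 1724 on the WT arrays, a fall by 3.84 ± 0.06 on the log2 scale (adjusted p = 5.57e-20). All 11 measured microglial markers lay above the array median on all 22 arrays. Trem2 is 1 of them, also on the KO arrays, so a value above the median does not by itself show expression. Tlr6, at 127 to 230, lay close above the KO values of Trem2, and Tlr12, at 77.9 to 135, overlapped them. Of 10 neutrophil markers, Ly6g and Mmp8 lay at or below the median on every array. S100a9 lay above it on 19 arrays (up to 1565), Camp on 18, S100a8 on 17 (up to 1414) and Retnlg on 13. Ngp lay above it on 10 arrays, Lcn2 on 8, Mmp9 on 7 and Ltf on 1. In 3 arrays (WT cuprizone 3, KO cuprizone 2 and KO cuprizone 3), the mean of 24 immediate-early genes, which cells switch on within minutes of a stimulus, was 8.77 to 9.13 log2, against 10.08 to 10.32 on the other 19. Without them the KO cuprizone group has 1 array, so its comparisons then take their spread from the other groups.

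**Figure D1:**
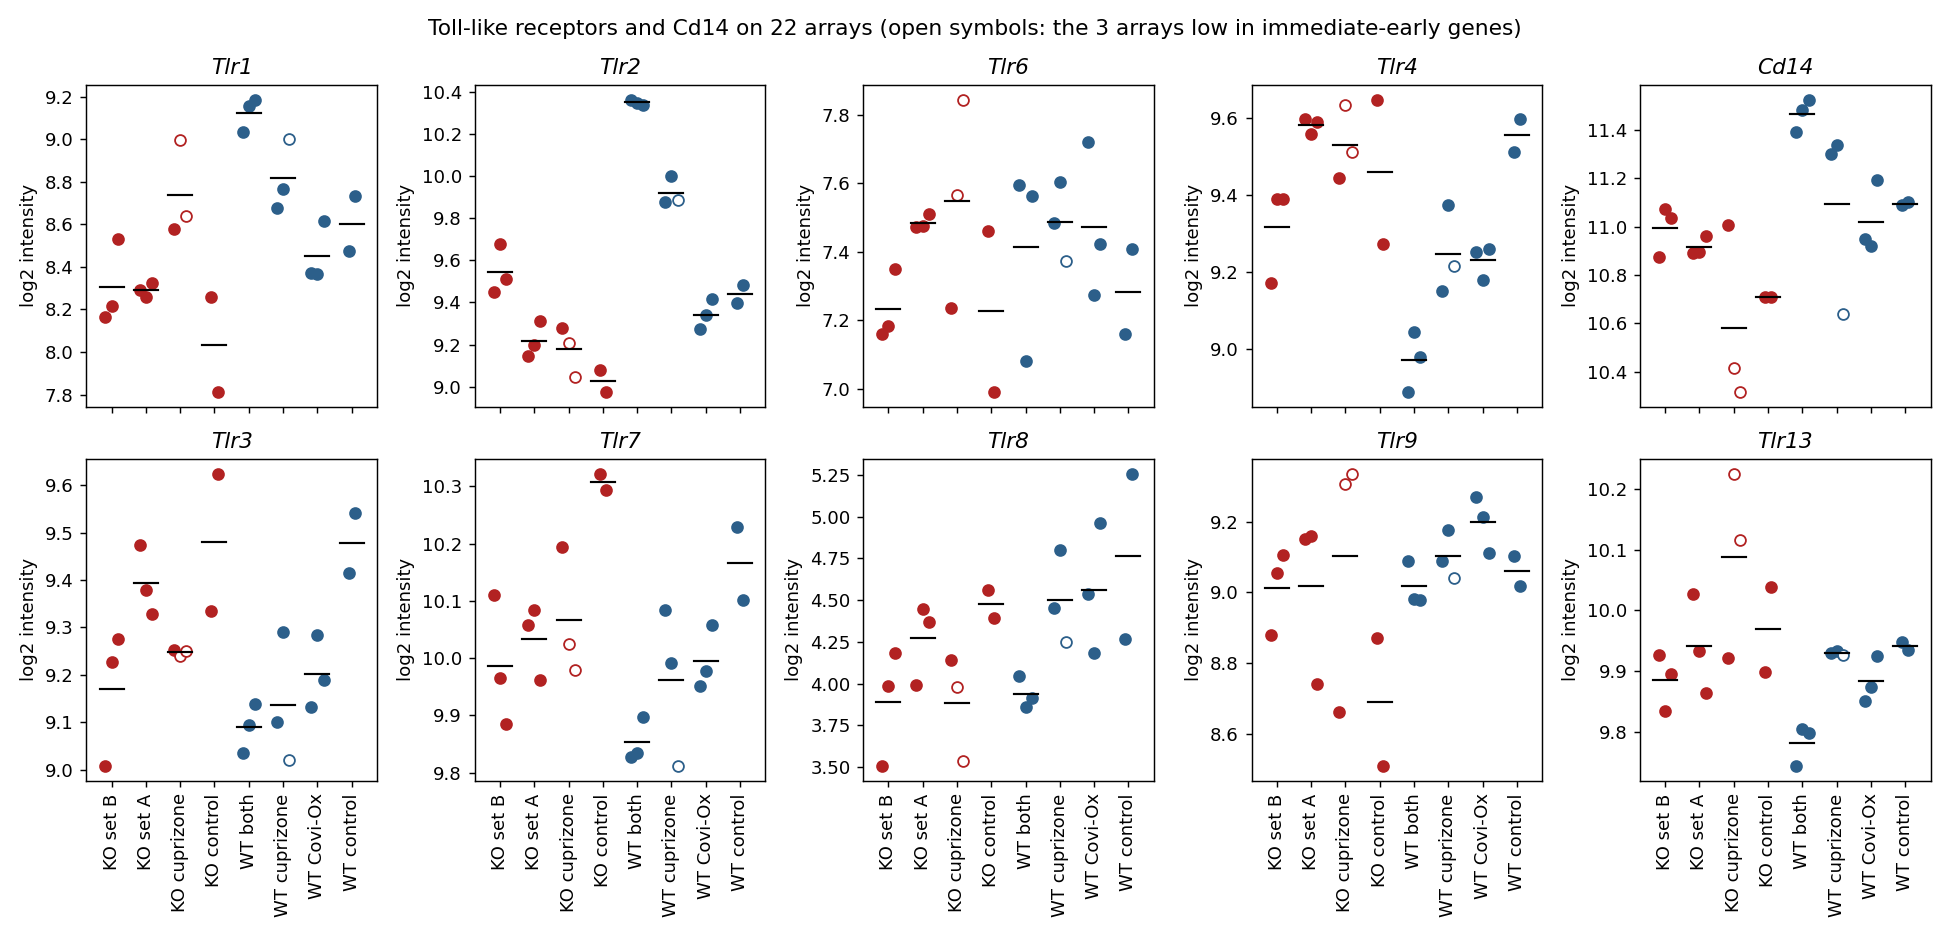
The log2 intensity of each of the 10 genes (vertical axis, own scale per gene) on each of the 22 arrays, by group, with KO groups in red left of WT groups in blue. Points are arrays, lines are group means, and open points are the 3 arrays low in immediate-early genes. Tlr2, Tlr1 and Cd14 are highest in WT mice given both agents, where Tlr4 is lowest.

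The first question was how cuprizone changed these receptors in WT microglia. Tlr2 was called higher under cuprizone with and without Covi-Ox, and Tlr4 fell modestly over both diets. Tlr1 was called higher with Covi-Ox and over both diets. A dependence of the Tlr1 difference on Covi-Ox was not called (adjusted p = 0.732). The endosomal receptors had no difference called by this model.

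Tlr2, the shared partner of the lipoprotein receptors, had intensities of 940, 1026 and 948 on the WT cuprizone arrays, against 674 and 715 on the WT control arrays. It had 1319, 1306 and 1298 in WT mice given both agents, against 618, 649 and 682 in WT mice given Covi-Ox alone. Every WT array with cuprizone lay above every WT array without it. The difference was 0.48 ± 0.10 log2 between cuprizone and control (1.40-fold, adjusted p = 0.0135). It was 1.01 ± 0.09 between both agents and Covi-Ox alone (2.01-fold, adjusted p = 5.66e-07). Averaged over both diets (with and without Covi-Ox), cuprizone raised Tlr2 by 0.75 ± 0.07 (1.68-fold, adjusted p = 4.29e-07). Without the 3 arrays low in immediate-early genes it was 0.75 (adjusted p = 1.13e-06). The 0.48 is the least firm of these, since fitted on the arrays of its own groups alone it had an adjusted p of 0.292, and without WT control 1 or WT control 2 the call was also lost, with a highest adjusted p of 0.165.

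Tlr1, which joins TLR2 to bind triacylated lipopeptides, had 523, 570 and 582 with both agents, against 331, 330 and 392 with Covi-Ox alone. Without Covi-Ox it had 410, 436 and 512 on the WT cuprizone arrays and 355 and 426 on the WT control arrays, which overlap. The difference was 0.67 ± 0.14 log2 with Covi-Ox (59.7% higher, adjusted p = 0.00439) and 0.21 ± 0.16 without it (adjusted p = 0.545). Over both diets it was 0.44 ± 0.10 (1.36-fold, adjusted p = 0.00803), and 0.0655 was the adjusted p without WT control 1. Without the 3 low arrays it was 0.40 (adjusted p = 0.0164). Tlr6, the other TLR2 partner and a neighbour of Tlr1 on chromosome 5, had 136 to 195 on the 6 WT arrays with cuprizone and 143 to 211 on the 5 without. Its difference was 0.07 ± 0.12 over both diets (adjusted p = 0.775).

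Tlr4, the lipopolysaccharide receptor, had 474, 528 and 505 with both agents, against 610, 580 and 613 with Covi-Ox alone. On the WT cuprizone arrays it had 568, 663 and 595, against 731 and 774 on the WT control arrays. In each pair the cuprizone arrays lay below their comparison arrays without overlap. Neither pair alone was called (-0.26 ± 0.10, adjusted p = 0.141, and -0.31 ± 0.12, adjusted p = 0.179). Over both diets Tlr4 fell by 0.28 ± 0.08 log2 (0.821-fold, adjusted p = 0.0195), and the call was lost without WT control 2 (adjusted p = 0.0871). Without the 3 low arrays the difference was -0.28 (adjusted p = 0.0417). Microglial markers moved the same way: 9 of 11 were called lower over both diets, where 5.93% of all genes were called lower. Their summed intensity was 22944 to 26956 with cuprizone and 29064 to 29881 without. Markers of border macrophages, which line vessels and meninges, also moved: 5 of 11 were called lower and none higher. Their summed intensity was 1736 to 2605 with cuprizone and 2808 to 3467 without. Of these markers 9 lay above the array median on all arrays. In sorted bulk cells, fewer cells of a type and less RNA per cell cannot be told apart, and the part of these shifts in the Tlr4 value was not tested.

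Of the 9 genes tested, 1 was called higher between cuprizone and control, where 2.5% of all genes were called (1.8% higher). Between both agents and Covi-Ox alone 2 were called, both higher, where 7.82% of all genes were called (4.65% higher). Over both diets 3 were called, 2 higher and 1 lower, where 12.9% of all genes were called (7.01% higher and 5.93% lower). The median difference of the 9 genes over both diets was -0.06 log2, against -0.03 for all genes.

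Neutrophil markers, which include the TLR4 ligands S100a8 and S100a9, moved in opposite directions in the 2 pairs. Their summed intensity, over 10 markers, was 727 to 2485 on the WT cuprizone arrays and 3385 to 3434 on the WT control arrays. With both agents it was 409 to 585, against 206 to 281 with Covi-Ox alone. On WT control 1 the sum of 3434 held 1379 from S100a8 and 1378 from S100a9. On WT Covi-Ox 1 the sum of 281 held 27.2 and 79.3 from them. The part of these neutrophil shifts in the Tlr2 values was not tested.

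**Figure D2:**
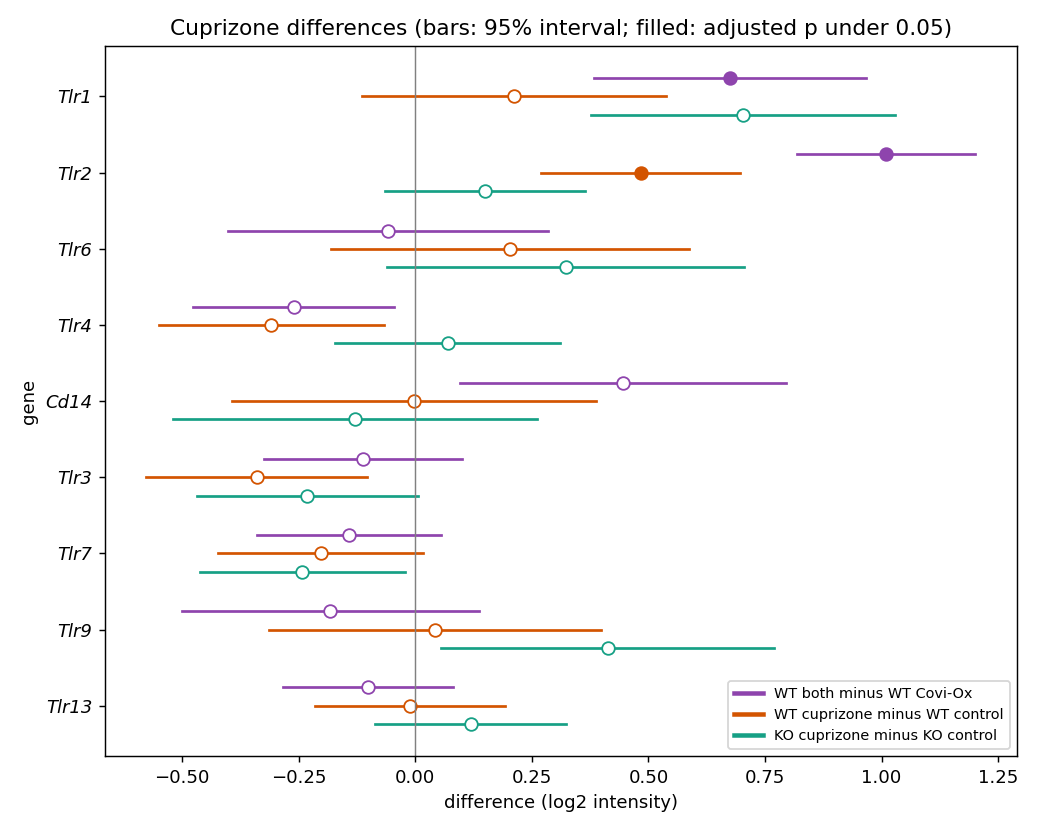
Difference of each tested gene (log2 intensity, horizontal axis) between mice given both agents and Covi-Ox alone, between cuprizone and control in WT mice, and between cuprizone and control in KO mice. Points are model estimates, bars are 95% intervals, and filled points passed an adjusted p of 0.05. Tlr2 is the one gene filled in both WT comparisons, and no gene is filled in KO mice.

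The second question was what the tocopherol feed did in WT mice. Without cuprizone, none of the 9 genes was called between Covi-Ox and control by limma, 2 had an unadjusted p under 0.05, and 0.0338% of all genes were called. Tlr4 had -0.32 ± 0.12 log2 in that comparison (adjusted p = 0.491), and the 3 Covi-Ox arrays lay below both control arrays. Tlr2 differed by -0.10 ± 0.10 there, with a 95% interval from -0.31 to 0.12 (adjusted p = 0.903). Summed neutrophil markers were 206 to 281 with Covi-Ox and 3385 to 3434 in control, and their part in these values was not tested.

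With cuprizone present, the comparison of both agents with cuprizone alone shares the WT cuprizone and the both-agents arrays with those above. None of the 9 genes was called, 4 had an unadjusted p under 0.05, and 0.152% of all genes were called. Tlr2 had a difference of 0.43 ± 0.09 log2 (1.35-fold, adjusted p = 0.0605), and the lowest both-agents array, at 1298, lay above the highest cuprizone array, at 1026. With limma's trend and robust options, or with array weights, this Tlr2 difference was called. Tlr1 had 0.31 ± 0.14 (adjusted p = 0.576) and Tlr4 -0.28 ± 0.10 (adjusted p = 0.431), each without overlap between the groups. The test of whether the cuprizone difference itself depended on Covi-Ox called none of the 9 genes, where 2 had an unadjusted p under 0.05 and 0.0254% of all genes were called. For Tlr2 that difference of differences was 0.53 ± 0.14 (adjusted p = 0.334) and for Tlr1 0.46 ± 0.21 (adjusted p = 0.732).

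The third question was whether the receptors responded in KO microglia. None of the 9 genes was called between cuprizone and control there, while 3 had an unadjusted p under 0.05 and 0.0423% of all genes were called. Tlr2 had 621, 591 and 528 on the KO cuprizone arrays, against 542 and 503 on the KO control arrays. The groups overlap, and the difference was 0.15 ± 0.10 log2 with a 95% interval from -0.06 to 0.36 (adjusted p = 0.559); it was 0.25 without the 3 low arrays (adjusted p = 0.633). Tlr1 had 382, 511 and 399, against 306 and 225, with no overlap. The Tlr1 difference was 0.70 ± 0.16 (1.63-fold, adjusted p = 0.0885), and it was called when WT cuprizone 3, KO control 1 or KO cuprizone 1 was left out. Without the 3 low arrays it was 0.54 (adjusted p = 0.413). Tlr9, the receptor for unmethylated CpG DNA, had 405, 634 and 647 on the KO cuprizone arrays and 469 and 364 on the KO control arrays. The highest 2 values are on the arrays low in immediate-early genes. The difference was 0.41 ± 0.17 (adjusted p = 0.302) with them and -0.03 (adjusted p = 0.985) without the 3 low arrays.

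The difference between KO and WT mice in the size of the cuprizone change was tested directly. None of the 9 genes was called, 3 had an unadjusted p under 0.05, and 0.228% of all genes were called. It was -0.33 ± 0.14 log2 for Tlr2 (adjusted p = 0.428), 0.38 ± 0.16 for Tlr4 (adjusted p = 0.426) and 0.49 ± 0.22 for Tlr1 (adjusted p = 0.455). A different response of Tlr2 in the 2 genotypes is therefore not shown, although Tlr2 was called in WT and not in KO mice.

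The fourth question was how the genotypes differed in level. Averaged over all diets, Tlr2, Tlr1 and Cd14 were lower and Tlr4 was higher in KO microglia. This average takes set A and set B together, so their contradictory labels do not enter it. Of the 9 genes tested 4 were called, 1 higher and 3 lower, where 6.37% of all genes were called (1.68% higher and 4.69% lower). The median of the 9 was -0.04 log2, against -0.01 for all genes.

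Tlr2 intensity had a lowest value of 503 and a highest of 820 on the KO arrays, and 618 and 1319 on the WT arrays. The 2 ranges overlap because the WT arrays without cuprizone fall inside the KO range. The difference was -0.52 ± 0.05 log2 (0.696-fold, adjusted p = 5.35e-07). On the cuprizone arrays alone it was -0.75 ± 0.09 (0.596-fold, adjusted p = 4.36e-05), and no KO cuprizone array reached a WT one. There 1 of the 9 genes was called, lower, against 3.8% of all genes called (2.98% lower), and the adjusted p was 0.0509 when the 2 groups were fitted alone. Without the 3 low arrays the Tlr2 difference was -0.66 under cuprizone (adjusted p = 0.0243) and -0.50 over all diets (adjusted p = 9.88e-06). Between KO and WT control mice Tlr2 differed by -0.41 ± 0.11 (adjusted p = 0.258), with both KO arrays below both WT arrays. Summed neutrophil markers were 2041 to 2096 on these KO arrays and 3385 to 3434 on these WT arrays, and their part was not tested. In that comparison none of the 9 genes was called, 2 had an unadjusted p under 0.05, and 0.0676% of all genes were called.

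Tlr1 differed by -0.41 ± 0.07 log2 over all diets (0.755-fold, adjusted p = 0.00161), and by -0.42 without the 3 low arrays (adjusted p = 0.00245). Control mice had -0.57 ± 0.17 (adjusted p = 0.285), with 306 and 225 in KO and 355 and 426 in WT mice. Cuprizone-fed mice had -0.08 ± 0.14 (adjusted p = 0.801), with overlapping arrays.

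Tlr4 was higher in KO microglia by 0.22 ± 0.05 log2 over all diets (1.17-fold, adjusted p = 0.0188). It had 696, 794 and 731 on the KO cuprizone arrays, against 568, 663 and 595 on the WT cuprizone arrays, with no overlap (0.28 ± 0.10, adjusted p = 0.137), and the difference was 0.18 without the 3 low arrays (adjusted p = 0.718). The control arrays had 803 and 618 in KO and 731 and 774 in WT mice, with a difference of -0.09 ± 0.13 (adjusted p = 0.812). The call over all diets was lost when arrays were centred on their median (0.18, adjusted p = 0.0575) and without the 3 arrays low in immediate-early genes (0.20, adjusted p = 0.0859). Besides Trem2, which was lower, 6 of the 11 microglial markers were called higher in KO mice in the same average, against 1.68% of all genes. Their part in the Tlr4 value was not tested.

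**Figure D3:**
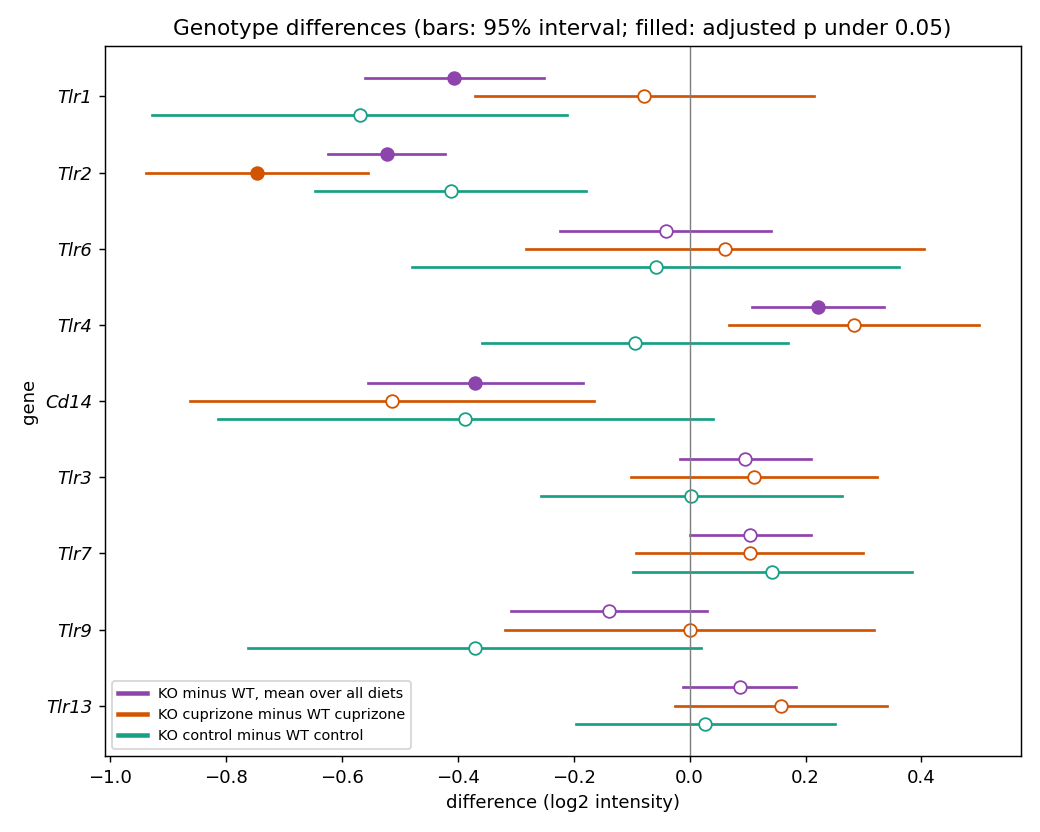
Difference of each tested gene (log2 intensity, horizontal axis) between KO and WT microglia over all diets, in cuprizone-fed mice and in control mice. Points are model estimates, bars are 95% intervals, and filled points passed an adjusted p of 0.05. Tlr2 is filled over all diets and under cuprizone, at -0.52 and -0.75, and Tlr4 lies right of 0 over all diets.

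Cd14, the lipopolysaccharide co-receptor, was called between genotypes only in the average over all diets. It was lowest on the arrays low in immediate-early genes. The KO arrays (1274 to 2153) and the WT arrays (1595 to 2950) overlap. In KO mice it had 1875, 2153 and 2100 in set B, 1897, 1903 and 1996 in set A, 2061, 1365 and 1274 under cuprizone and 1674 and 1672 in controls. In WT mice it had 2686, 2862 and 2950 with both agents, 2523, 2591 and 1595 under cuprizone, 1976, 1938 and 2343 with Covi-Ox and 2178 and 2197 in controls. The 3 lowest values of all 22, from 1274 to 1595, are the 3 arrays low in immediate-early genes, and the other 19 lie between 1672 and 2950.

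Over all diets Cd14 was lower in KO mice by 0.37 ± 0.09 log2 (0.774-fold, adjusted p = 0.0152). It was -0.32 (adjusted p = 0.00156) without the 3 low arrays, and its adjusted p was 0.0704 after quantile normalization. Between KO and WT control mice Cd14 differed by -0.39 (adjusted p = 0.511), with both KO arrays below both WT arrays. Under cuprizone alone KO and WT mice differed by -0.51 ± 0.17 (adjusted p = 0.0928). Without the 3 arrays, which leaves 1 KO cuprizone array assumed to vary like the other groups, the difference was -0.31 (adjusted p = 0.396). In WT mice the cuprizone difference over both diets was 0.22 ± 0.13 (adjusted p = 0.281), and it was 0.34 (adjusted p = 0.00566) without the 3 arrays. Between both agents and Covi-Ox alone, which hold none of the 3 arrays, it was 0.45 ± 0.17 with no overlap (adjusted p = 0.117), and without the 3 arrays the same 0.45 had an adjusted p of 0.00351. Between cuprizone and control in WT mice Cd14 had 0.00 ± 0.19 (adjusted p = 0.997) with the 3 arrays and 0.23 without them (adjusted p = 0.454).

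**Figure D4:**
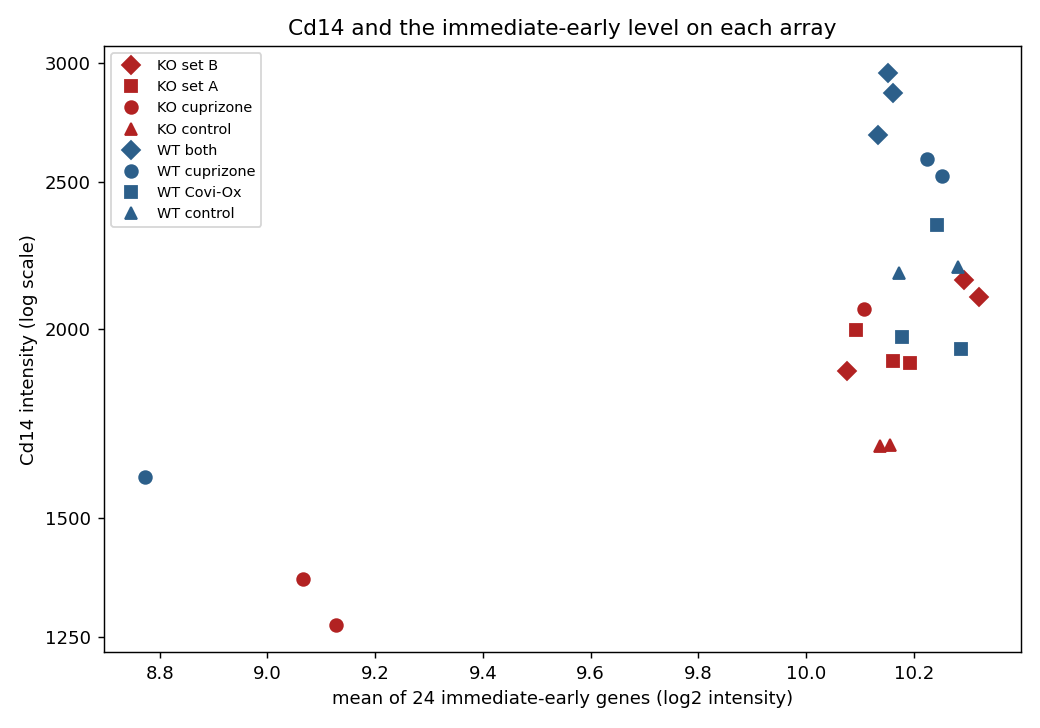
Cd14 intensity (log scale, vertical axis) against the mean of 24 immediate-early genes (log2 intensity, horizontal axis) on each of the 22 arrays, by group. The 3 arrays at 8.77 to 9.13 on the horizontal axis have the lowest Cd14, from 1274 to 1595.

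The endosomal receptors had no call as fitted above, although single differences reached the size of those called for other members. Tlr3, which binds double-stranded RNA, had a lowest intensity of 515, a median of 620 and a highest of 789 on the KO arrays, and 519, 564 and 745 on the WT arrays. Tlr7, which binds single-stranded RNA, had 946, 1066 and 1280 on the KO arrays and 899, 1008 and 1200 on the WT arrays. Tlr13, which in mice reads bacterial ribosomal RNA, had 913, 973 and 1197 on the KO arrays and 857, 972 and 987 on the WT arrays. Tlr9 had 364, 532 and 647 on the KO arrays and 505, 545 and 618 on the WT arrays. None of these 4 was called by the limma model above in any of the 14 comparisons. Their differences ran from -0.37 (Tlr9, KO control minus WT control) to 0.41 (Tlr9, KO cuprizone minus KO control), with 95% intervals reaching -0.76 and 0.77. The difference over all diets between KO and WT mice ran from -0.14 to 0.10 log2, with 95% intervals within -0.31 and 0.21. For Tlr9 it was -0.14 ± 0.08 (adjusted p = 0.315), and -0.26 without the 3 low arrays (adjusted p = 0.0523). The lowest adjusted p was 0.0565, for Tlr3 under cuprizone in WT mice over both diets, at -0.23 ± 0.08. That Tlr3 difference was called with trend and robust options (adjusted p = 0.0417), array weights (0.0367) and quantile normalization (-0.30, adjusted p = 0.0195). Quantile normalization also called Tlr7 there (-0.27, adjusted p = 0.0187), against -0.17 ± 0.07 as fitted above (adjusted p = 0.121).

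In the 6 KO arrays with contradictory labels, Tlr2 had 700, 820 and 729 in set B and 565, 587 and 636 in set A, against 542 and 503 in KO controls. Set B exceeded KO control by 0.52 ± 0.10 log2 (1.43-fold, adjusted p = 0.0279), and the difference for set A was 0.19 ± 0.10 (adjusted p = 0.491). In set B 1 of the 9 genes was called, where 0.744% of all genes were called (0.549% higher). In set A none was called and 1 had an unadjusted p under 0.05, where 0.0338% of all genes were called. Both comparisons share the KO control arrays. The set B call was lost without KO control 2, without KO set B 2 or without KO set B 3. It was also lost with only the arrays compared (adjusted p = 0.277) and with quantile normalization (adjusted p = 0.0527). Array weights (adjusted p = 0.151) and replicate numbers as a block (adjusted p = 0.0538) lost it too. Summed neutrophil markers were 262 to 837 in set B and 2041 to 2096 in KO control. Of the 7 tested, 2 were called lower, against 0.744% of all genes called in either direction. Summed border macrophage markers were 1711 to 2476 in set B and 2869 to 2884 in KO control. The part of these shifts in the Tlr2 value was not tested. The Tlr2 difference of set B from set A was 0.33 ± 0.09, with no overlap (adjusted p = 0.206). None of the 9 genes was called between the 2 sets, 3 had an unadjusted p under 0.05, and 0.00845% of all genes were called. Which set received cuprizone cannot be told from the labels, so no diet is attached to these differences.

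Among all 8 groups, Tlr2 ran from WT both (geometric mean 1308) through WT cuprizone (970) and KO set B (748) to WT control (694), WT Covi-Ox (649), KO set A (595), KO cuprizone (579) and KO control (522). The arrays of the top 3 groups do not overlap with each other, and every later neighbouring pair overlaps. For Tlr4 the order begins with KO set A (766) and ends with WT both (502), and the one neighbouring pair without overlap is WT Covi-Ox and WT both. For Tlr1 the highest group is WT both (558), whose lowest array, at 523, lay above the highest WT cuprizone array, at 512. The lowest group is KO control (262). Its higher array, at 306, all but met the lowest of KO set A, at 307, and lay above the lowest of KO set B, at 287.

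The rest of the pathway was read from lists of its parts, chosen with earlier results of these data known. Their counts stand against 7.01% of all genes called higher and 5.93% lower under cuprizone over both diets, and 1.68% higher and 4.69% lower in KO mice over all diets. Co-receptors and chaperones include Ly96 (MD-2), which holds lipopolysaccharide beside TLR4, and Unc93b1, which carries endosomal receptors to their compartment. Of 14 tested, cuprizone raised 2 in WT mice over both diets and lowered none, a count near that share. They were the lysosomal proteases Ctsb (0.46 ± 0.07 log2, adjusted p = 0.000214) and Ctsl (0.35 ± 0.07, adjusted p = 0.00268), which can process endosomal receptors. In KO mice over all diets 2 were lower and none higher: the scavenger receptor Cd36 (-0.54 ± 0.13, adjusted p = 0.0119) and Ctsb (-0.23 ± 0.05, adjusted p = 0.00755). Ly96 had -0.14 ± 0.15 under cuprizone (adjusted p = 0.631) and 0.11 ± 0.11 in KO mice (adjusted p = 0.573).

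Of 19 adaptors and kinases, 1 was higher and 2 were lower under cuprizone in WT mice over both diets, near the 12.9% of all genes called in either direction. Mapkapk2, a kinase that stabilises cytokine mRNA, was higher by 0.50 ± 0.11 log2 (adjusted p = 0.00354). Tab2, a link to the kinase TAK1, was lower by 0.43 ± 0.09 (0.740-fold, adjusted p = 0.00247). Mapkapk2 was the one gene of this list called in KO mice over all diets, at -0.51 ± 0.07 (adjusted p = 0.000183). Myd88, the adaptor of nearly all these receptors, had -0.19 ± 0.13 under cuprizone (adjusted p = 0.386) and -0.11 ± 0.09 in KO mice (adjusted p = 0.491).

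Of 9 transcription factors, Irf7, which drives interferon genes, was the one called under cuprizone, higher by 1.26 ± 0.18 log2 in WT mice (2.40-fold, adjusted p = 0.000101). Nfkb2, a precursor of NF-kB, was the one called in KO mice, at -0.24 ± 0.07 (adjusted p = 0.0429). Of 19 inhibitors, cuprizone raised 1, near the 7.01% of all genes, and lowered 3, against 5.93% of all genes. Usp18, itself an interferon-induced gene that restrains interferon signalling, was higher by 1.19 ± 0.17 (adjusted p = 7.9e-05), and Inpp5d, which encodes the phosphatase SHIP1, was lower by 0.32 ± 0.08 (0.800-fold, adjusted p = 0.0140). In KO mice 3 inhibitors were lower and none higher, among them Usp18 at -0.47 ± 0.12 (adjusted p = 0.0223).

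Of 24 target genes, cuprizone raised 8 and lowered 1 in WT mice over both diets, where 7.01% of all genes were called higher and 5.93% lower. The median was 0.42 log2, against -0.03 for all genes. The chemokine genes Ccl5 (1.85 ± 0.24, adjusted p = 2.27e-05) and Cxcl9 (1.76 ± 0.21, adjusted p = 1.07e-05) and the interleukin-1 antagonist gene Il1rn (1.49 ± 0.11, adjusted p = 3.78e-08) were among them. The others raised were Ptgs2 (1.55), Cxcl10 (1.25), Acod1 (0.97), Ifit1 (0.90) and Il12b (0.71), and the lowered gene was Cd80 (-0.52). Tnf had 0.37 ± 0.35 (adjusted p = 0.568) and Il1b 1.36 ± 0.59 (adjusted p = 0.145). Receptor signalling was not measured, and the signal behind these differences was not tested. In KO mice over all diets 4 targets were lower and none higher, where 4.69% of all genes were called lower, with a median of -0.30 against -0.01 for all genes. They were the cyclooxygenase gene Ptgs2 (-1.32 ± 0.35, adjusted p = 0.0288), Il1rn (-0.76 ± 0.08, adjusted p = 3.38e-06), the cytokine gene Il12b (-0.26 ± 0.06, adjusted p = 0.0181) and the costimulatory gene Cd86 (-0.19 ± 0.05, adjusted p = 0.0379).

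Among 5 genes of tissue ligands, Fn1, which encodes the matrix protein fibronectin, was the one called under cuprizone over both diets (3.81 ± 0.36 log2, adjusted p = 6.27e-07) and in KO mice over all diets (-1.86 ± 0.26, adjusted p = 8.45e-05). Tlr12, the remaining receptor with a probe set, had 0.08 log2 under cuprizone and -0.01 in KO mice and was called in no comparison.

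**Figure D5:**
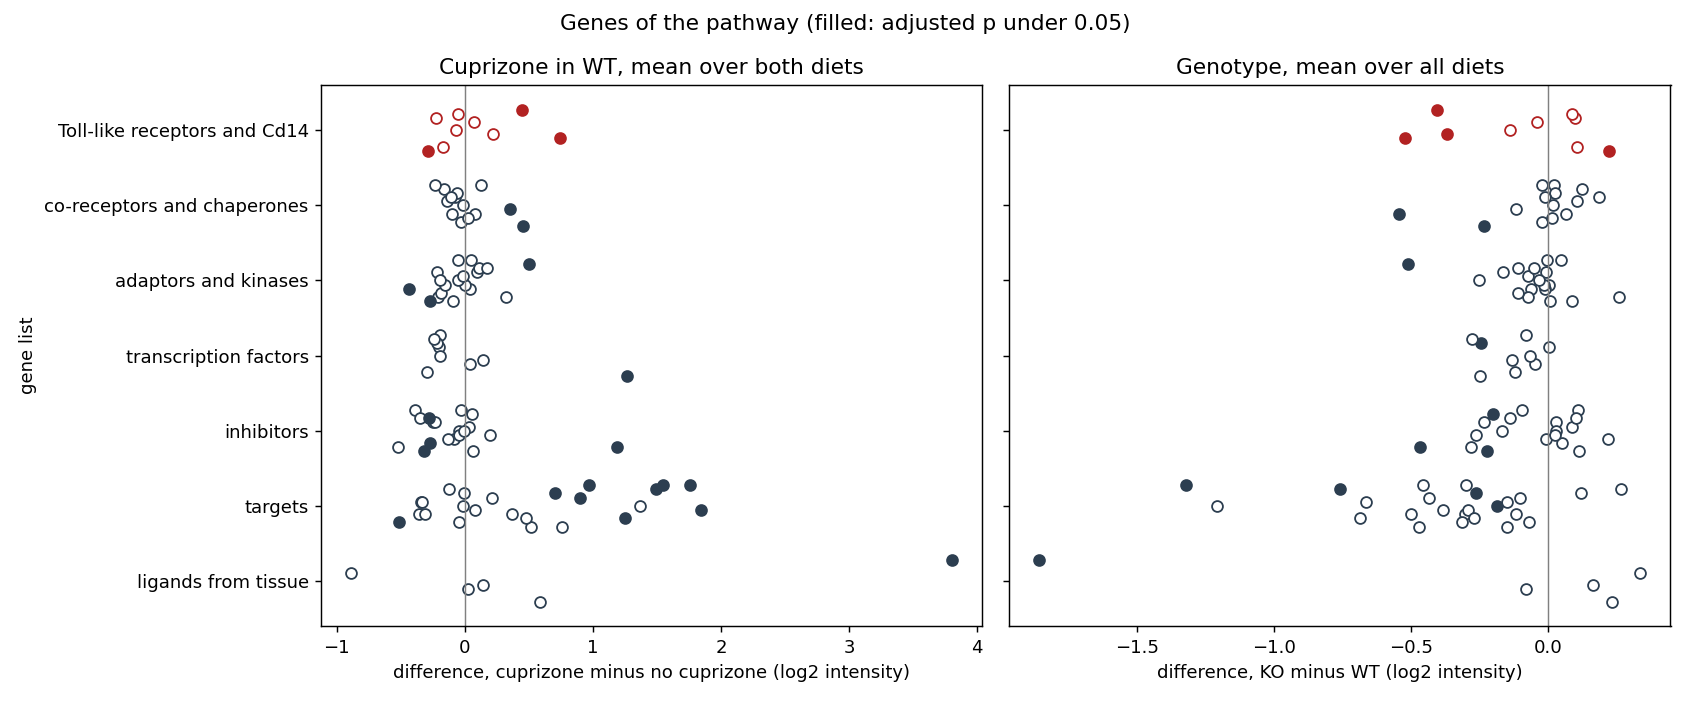
Difference of each tested gene of the pathway lists (log2 intensity, horizontal axis), for cuprizone in WT mice over both diets (left) and KO minus WT over all diets (right). Each point is a gene, points are spread vertically for sight only, and filled points passed an adjusted p of 0.05. Targets and the ligand gene Fn1 have the widest differences, Fn1 at 3.81 and -1.86.

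Among the 11830 genes kept, those whose 8 group means ran most like each receptor's were taken by Pearson's r on log2 values. All genes were read on the same arrays. Picking the highest of so many over 8 means favours a high r, and shared regulation was not tested. For Tlr2 they were Siglecf (0.995), Eif4b (0.993) and Hectd2 (0.992). For Tlr1 they were Zadh2 (0.980), Pde8b (0.979) and Gpr137b-ps (0.970), and for Cd14 Nfil3 (0.979), Pmaip1 (0.976) and Crem (0.966). For Tlr4 they were Obi1 (0.989), Bace1 (0.971) and Ccdc77 (0.966).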

How the data were processed

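Per the submitters' processing notes, the values were made with RMA, which background-corrects, normalizes and summarises probes; no version or setting of it is given in the sources used here. The authors deposited each probe set's intensity on a linear scale, and log2 was taken here before any test. The table holds 28098 probe sets, of which 22961 are listed in the platform's gene table and 21640 map to 1 gene. Per gene the probe set with the highest mean was used. Genes brighter than the 50th percentile on 2 or more arrays were kept (11830 of 19937). Testing used limma 3.58.1 (R 4.3.3), with one model of 8 group means over the 22 arrays, which left 14 residual degrees of freedom beside a prior of 5.49. The script was tested on simulated data with planted changes and independent noise, which checks the calculation and not the results above. In each of 14 comparisons Benjamini-Hochberg adjustment ran over all genes kept. Comparisons share arrays and are not independent, and the number of arrays limits the precision. Genes named are all 10 members, called members of each list (up to 4) and a few pathway genes set by name. The members and lists were chosen with earlier results of these data known.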

Additional observations from a re-analysis of the deposited data

How the results depend on the processing

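Of 126 pairs of a gene and a comparison 12 were called, and none of these 12 changed its direction under 11 alternatives or with any of the 22 arrays left out. The other 114 were not called, and their direction is not counted here. The number of the 9 genes called fell to 0 for WT cuprizone against control when only the arrays compared were fitted. Array weights gave 4 for both agents against Covi-Ox (Tlr1, Tlr2, Tlr4 and Cd14). Quantile normalization and array weights each gave 5 for cuprizone over both diets. The immediate-early covariate called Cd14 over both diets too (adjusted p = 0.00185). For both agents against cuprizone alone, the trend and robust options and array weights each gave 1 (Tlr2). For KO against WT under cuprizone, fitting only the arrays compared gave 0, and quantile normalization gave 2 (Tlr2 and Tlr4). Centring on the median, array weights and the immediate-early mean as a covariate also gave 2 each (Tlr2 and Cd14). For KO set B against control, fitting only the arrays compared, quantile normalization and array weights each gave 0. Replicate numbers were not treated as pairs, since 3 of 71 same-numbered pairs of arrays had a correlation over 0.1 (from -0.23 to 0.25); with the replicate block, KO set B against control gave 0. Leaving out 1 array gave 0 to 1 genes for WT cuprizone against control, 2 to 3 for both agents against Covi-Ox, 2 to 4 over both diets, 0 to 2 for cuprizone in KO mice, 1 to 2 for KO against WT under cuprizone, 0 to 2 for KO against WT controls, 4 to 4 over all diets and 0 to 2 for set B against control. In KO against WT controls the 2 were Tlr1 and Tlr2, without KO control 1. The other 6 comparisons had 0 to 0. The cause was not tested. Groups of 2 or 3 arrays limit all of these values.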
